A study of Mus musculus with 2 samples.

Results

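The inhibitor of DNA binding (Id) genes and the E protein genes were examined in naive CD8+ T cells that lack Bcl11b and in wild-type cells. The members were the 6 genes Id1, Id2, Id3, Tcfe2a, Tcf4 and Tcf12, taken by the gene name that the array design gives each spot. They had 13 spots of 43379 gene spots, each a different probe. Tcfe2a encodes E2A and now has the symbol Tcf3. The 2 spots that the design calls Tcf3 belong to Tcf7l1 by their accession and were not taken. Of the 6 genes, 4 were measured, among 9281 measured genes: Id2, Id3, Tcfe2a and Tcf12. A gene counted as measured if a probe was well above background in the same genotype on both arrays. Id1 and Tcf4 did not reach this.

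Knockout cells carried floxed Bcl11b alleles and the dLck-iCre transgene, an iCre recombinase under the distal Lck promoter, which acts late in T cell development. Control cells came from wild-type mice. All mice were of the C57BL/6 background; ages were not given in the sources used here. CD8+ T cells low in CD44 and CD25 were sorted to more than 90% purity per the labels. There were 2 arrays, and on each the Cy5 channel held a knockout sample and the Cy3 channel a wild-type one. They are biological replicates per the labels, which leave open how many mice a sample came from. No array had the dyes swapped, so a dye effect of a probe and the effect of the genotype cannot be told apart.

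E proteins are basic helix-loop-helix transcription factors. They bind DNA at E-boxes, which read CANNTG, as pairs with each other or with other helix-loop-helix factors. Id proteins have the helix-loop-helix but lack the basic DNA-binding region, so they hold E proteins in pairs that cannot bind DNA. In CD8+ T cells Id3 is known for the naive and memory-precursor state and Id2 for effector cells. Id2 is also abundant in natural killer (NK) cells, other innate lymphocytes and some dendritic cells.

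Id2 was higher in the knockout on both arrays and was the only 1 of the 4 measured members to pass the test across all genes. Every gene had the same standard error, so means of at least 1.68 in size passed, and Id2 was at 1.75. It did not pass in 7 of 16 other processing settings with a test. Id3, the other Id gene that was measured, was at a mean log2 ratio of -0.07, where 0 means equal signal. The E protein genes Tcfe2a and Tcf12 had means of 0.32 and 0.91, and neither passed. The arrays differed most for the E protein genes (SD of 0.97 for Tcfe2a and 1.16 for Tcf12), less for Id2 (0.77) and least for Id3 (0.27). For comparison, 1.49% of measured genes passed, 1.24% as higher in the knockout and 0.248% as lower (limma, adjusted p 0.05). The median log2 ratio was 0.62 over the 4 measured members and 0.04 over all measured genes.

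The promoters of Id2 and Id3 are shown because these genes are close relatives with different ratios here. Each sequence is the 250 bases before the RefSeq transcript start on GRCm38.p6, read 5′ to 3′ along the gene's own strand. Capitals mark E-boxes, searched as CANNTG on both strands. The Id2 window is chr12:25096093-25096342 on the minus strand, and the Id3 window is chr4:136143572-136143821 on the plus strand.
Id2: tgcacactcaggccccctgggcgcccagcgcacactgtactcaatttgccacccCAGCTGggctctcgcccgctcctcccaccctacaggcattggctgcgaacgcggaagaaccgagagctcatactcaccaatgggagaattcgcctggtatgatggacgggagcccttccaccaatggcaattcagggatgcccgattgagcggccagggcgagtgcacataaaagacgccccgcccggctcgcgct
Id3: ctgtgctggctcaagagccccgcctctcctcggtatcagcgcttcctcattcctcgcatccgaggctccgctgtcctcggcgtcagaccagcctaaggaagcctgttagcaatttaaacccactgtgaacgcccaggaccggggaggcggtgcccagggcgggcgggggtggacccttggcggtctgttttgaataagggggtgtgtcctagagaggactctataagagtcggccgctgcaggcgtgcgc

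The Id2 window held 1 E-box, of the form CAGCTG, which began 196 bases before the start. These letters do not occur in the Id3 window. The G and C content was 62.8% in both windows. Of 32851 RefSeq promoter windows of this length, 66.2% held a CANNTG E-box, 13% the form CAGCTG and 17.2% the form CAGGTG. The last 2 are forms of the general E-box, so these shares overlap. Of the 6 members, 4 matched this table: Id2, Id3, Tcf12 and Tcf3, the last being Tcfe2a. Tcfe2a had 1 E-box, CACTTG, at 54 bases before its start. The first Tcf12 start had CAGCTG at 240 bases and the second had CAAGTG at 149, and the third window had none. GCGTGGGCG, a site of the Egr factors that induce Id genes, was in 0.536% of all windows and in none of these 6. A match is a description of the sequence and not a measured binding site.

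The samples were checked first. Bcl11b, the deleted gene, had log2 ratios of -1.45 and -1.73, and thus less signal in the knockout (mean -1.59 ± 0.19, SD, n = 2; adjusted p = 0.0747, limma). No genome was used to place its probe against the deleted part. All 14 defining markers of CD8 T cells were well above background in every channel. Between 10739 and 17276 gene spots per channel were well above background. Negative control spots had median signals of 985 to 1865 per channel. The arrays differed in spread, with SDs of log2 ratios over genes of 1.01 and 0.41. Their ratios had a Pearson r of 0.29 and a Spearman rho of 0.32 over 9281 genes, which share the arrays and are not independent replicates. The Y-linked gene Ddx3y stood well above background in 1 genotype per array, the knockout on array 1 and wild type on array 2. Xist, which is expressed from the inactive X chromosome, did so in the knockout of array 2 alone. The part of sex in the member ratios was not tested.

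Id2 had 2 probes. The brighter had a spot signal of 16566 in the knockout and 1502 in wild type on array 1. On array 2 the signals were 27843 and 5540. Knockout was thus brighter on both arrays, and the wild-type signal of array 1 lay near that of the negative controls there (median 1087). After normalisation for dye and intensity, the log2 channel levels were 13.34 and 11.05 on array 1 and 13.79 and 12.59 on array 2. Both knockout levels exceeded both wild-type levels.

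The log2 ratio of Id2 was 2.29 on array 1 and 1.20 on array 2. This gave a mean of 1.75 ± 0.77 (SD, n = 2) and a signal 3.36-fold that of wild type, with a 95% interval of 0.77 to 2.72 from the error shared by all genes. It passed over all genes (adjusted p = 0.0346, limma). Its ratio was above that of most genes on each array: 3.38% of measured genes were higher on array 1 and 1.39% on array 2. Without array 1 the ratio was 1.20, and without array 2 it was 2.29. It stayed above 0 on both arrays in all 16 other processing settings with a test, but passed in only 9 of these, with adjusted p from 3.24e-06 to 0.635.

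A second Id2 probe gave ratios of 1.81 and 1.11, a mean of 1.46 ± 0.50 (SD, n = 2). Its spot signals were 8073 in the knockout and 1262 in wild type on array 1, and 12934 and 3093 on array 2. The wild-type signal was not well above background on array 1. Both probes of Id2 therefore gave the same direction on both arrays. With every probe tested on its own, neither passed (adjusted p = 0.147 and 0.22, limma). The array design places the brighter probe on mm8 chromosome 12 from 25683119 to 25683178. The second lies from 25684398 to 25684745, a span of 348 bases, longer than the 60 bases of the other. No gene annotation of mm8 was used, so the exons were not assigned.

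**Figure D1:**
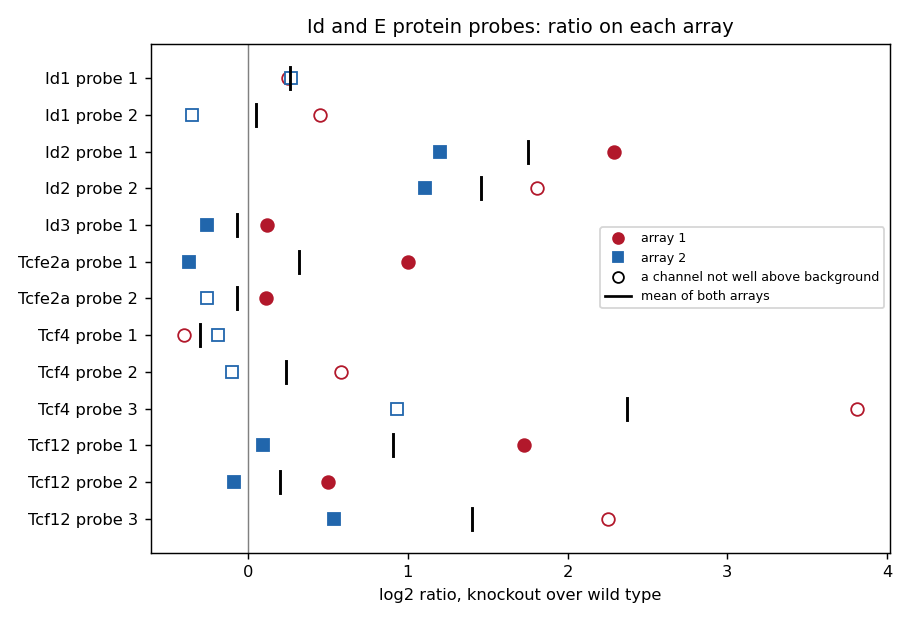
Log2 ratio of knockout over wild type (x axis) for each of the 13 probes, with array 1 as circles, array 2 as squares and their mean as a black bar; open symbols have a channel not well above background. Both Id2 probes sit above 1 on both arrays, whereas the Id3 probe lies at 0.12 and -0.26.

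Scanner software error models give a further view of single spots, from pixels and background within 1 array and not from replicates. For the brighter Id2 probe the authors' scanner values, turned to log2, were 2.79 with an error of 0.33 on array 1 and 1.28 with an error of 0.24 on array 2. The second probe was at 3.31 with an error of 0.38 and at 1.27 with an error of 0.24. The direction was the same on both arrays for both probes.

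Id3, with a single probe, had spot signals of 6213 in the knockout and 2085 in wild type on array 1, and of 5042 and 2930 on array 2. It was well above background in every channel. Knockout signals were higher before normalisation on both arrays. After normalisation the log2 levels were 11.89 and 11.77 on array 1 and 11.13 and 11.40 on array 2, so the genotypes overlapped. The log2 ratios were 0.12 and -0.26, with a mean of -0.07 ± 0.27 (SD, n = 2; adjusted p = 0.986, limma). Its sign is therefore not settled, and it became positive with median centring (0.70) and without normalisation (1.40). Those settings also moved the median of all genes, to 0.68 and 1.38. The 95% interval of the Id3 mean was -1.04 to 0.90, from the error shared by all genes and not from the spread of Id3 itself. The probe lies on mm8 chromosome 4 from 135416236 to 135416410.

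The Id2 ratio exceeded the Id3 ratio by 2.17 on array 1 and by 1.46 on array 2 on the log2 scale. The mean difference was 1.82 ± 0.50 (SD, n = 2). Id2 also exceeded Tcfe2a on both arrays, by 1.29 and 1.57, and Tcf12 by 0.56 and 1.10. These are differences between ratios, not between levels, since probes of different genes are not comparable in level. They were not tested.

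Id1, whose induction by bone morphogenetic protein (BMP) signals is well known, was not well above background in either genotype on either array. Its first probe had signals of 1083 in the knockout and 1029 in wild type on array 1, and 1875 and 1046 on array 2. The second had 885 and 842 on array 1, and 1239 and 827 on array 2. All 8 values lay near or below the negative control medians of their channel, so no fold is given. Both probes lie on mm8 chromosome 2, from 152428751 to 152428810 and from 152428741 to 152428800, and overlap in most of their sequence.

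**Figure D2:**
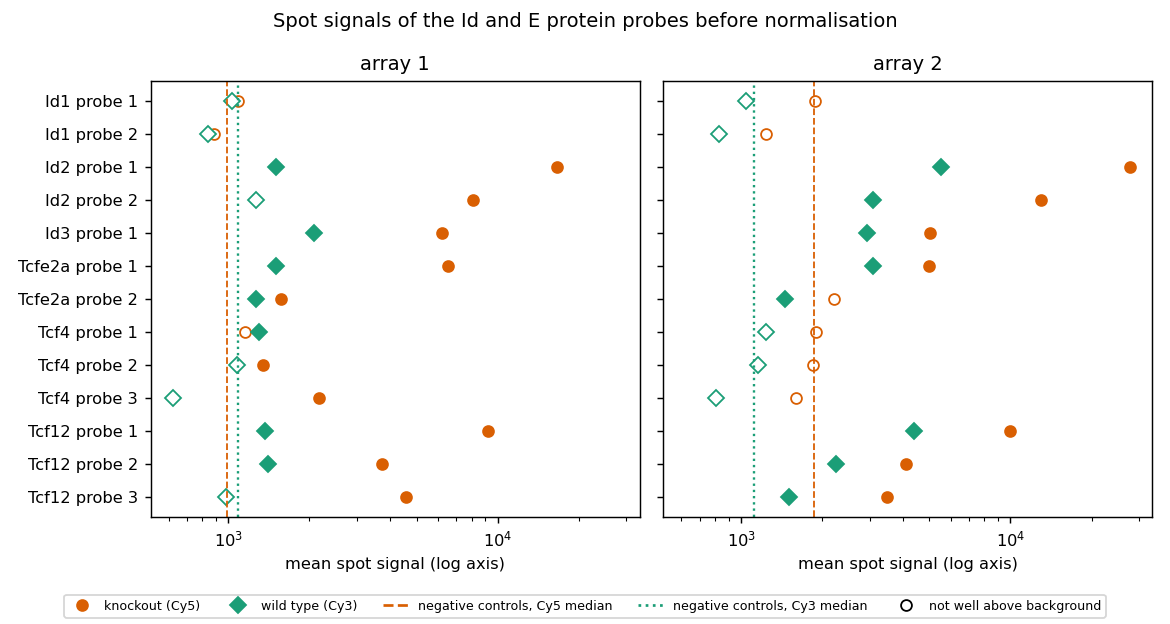
Mean spot signal before normalisation (x axis, log scale) of each probe in knockout (circles, Cy5) and wild type (diamonds, Cy3) on array 1 (left) and array 2 (right); open symbols are not well above background and vertical lines are the medians of negative control spots. Id1 and most Tcf4 signals lie close to the negative controls, and both Id2 probes are brighter in knockout than in wild type on both arrays.

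Tcfe2a encodes E12 and E47, the E proteins best known from early T and B cell development. Its brighter probe had signals of 6561 in the knockout and 1508 in wild type on array 1, and of 4992 and 3078 on array 2. Normalised log2 levels were 12.01 and 11.00 on array 1 and 11.12 and 11.49 on array 2. Knockout was thus higher on array 1 and lower on array 2, and the genotypes overlapped. The log2 ratios were 1.00 and -0.37 (mean 0.32 ± 0.97, SD, n = 2; adjusted p = 0.932, limma). The second probe gave 0.11 and -0.26, a mean of -0.07 ± 0.27, and its knockout signal was not well above background on array 2. The brighter probe lies on mm8 chromosome 10 from 79813023 to 79813082 and the second from 79816347 to 79816406. Of all measured genes, 21.0% were above 0 on array 1 and below 0 on array 2, as Tcfe2a was.

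Tcf12 encodes HEB, the partner of E2A in thymocytes. Its brightest probe had signals of 9227 in the knockout and 1373 in wild type on array 1, and of 10001 and 4398 on array 2. Normalised log2 levels were 12.52 and 10.78 on array 1, and 12.25 and 12.15 on array 2. The genotypes were apart on array 1 and nearly level on array 2, where the ratio was 0.09. With 1.73 on array 1 the mean was 0.91 ± 1.16 (SD, n = 2; adjusted p = 0.575, limma). Of these 4 levels, wild type on array 1 was the one far from the others.

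The other Tcf12 probes gave different sizes. The second had 0.50 and -0.09 (mean 0.20 ± 0.42, SD, n = 2). The third had 2.25 and 0.54 (mean 1.40 ± 1.21), with wild type not well above background on array 1. It gave a scanner ratio of 1.06 with an error of 0.31 on array 2, where the brightest probe gave 0.07 with an error of 0.21. The third probe was designed on a thymus clone and lies 98918 bases from the brightest on mm8 chromosome 9, from 71741981 to 71742040. The brightest lies from 71643063 to 71643122, and the second 1271 bases away from it. Since Tcf12 has several transcript starts in RefSeq, the probes may not detect the same transcripts, which was not tested. Under the name A130037E08Rik the array has 2 more probes that the RefSeq table assigns to Tcf12. They were outside the rule and gave -0.14 and -0.06, and 0.28 and -0.23.

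Tcf4 encodes E2-2, an E protein that is high in plasmacytoid dendritic cells and B cells. Its 3 probes, on chromosome 18, were dim and disagreed, and none passed the filter for the test. The first had signals of 1153 in the knockout and 1304 in wild type on array 1, and of 1900 and 1233 on array 2. It was well above background only in wild type on array 1, with ratios of -0.40 and -0.19. The second had 1341 and 1074 on array 1 and 1847 and 1155 on array 2, with ratios of 0.58 and -0.10. The third had 2174 and 622 on array 1 and 1601 and 803 on array 2, with ratios of 3.81 and 0.93.

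For both of these latter Tcf4 probes, the knockout on array 1 was the only channel well above background. The ratio of 3.81 therefore rests on a wild-type signal below the negative controls. Set against the lowest signal that was well above background in wild type, the third probe had a mean knockout signal 1.14-fold higher. That mean includes array 2, where the knockout was not well above background, so it is no lower bound. In the same kind of comparison the first had a mean wild-type signal 1.01-fold higher. There too the brighter genotype was not well above background on array 2. The second gave no value. Bounds of this kind are also open to dye bias.

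**Figure D3:**
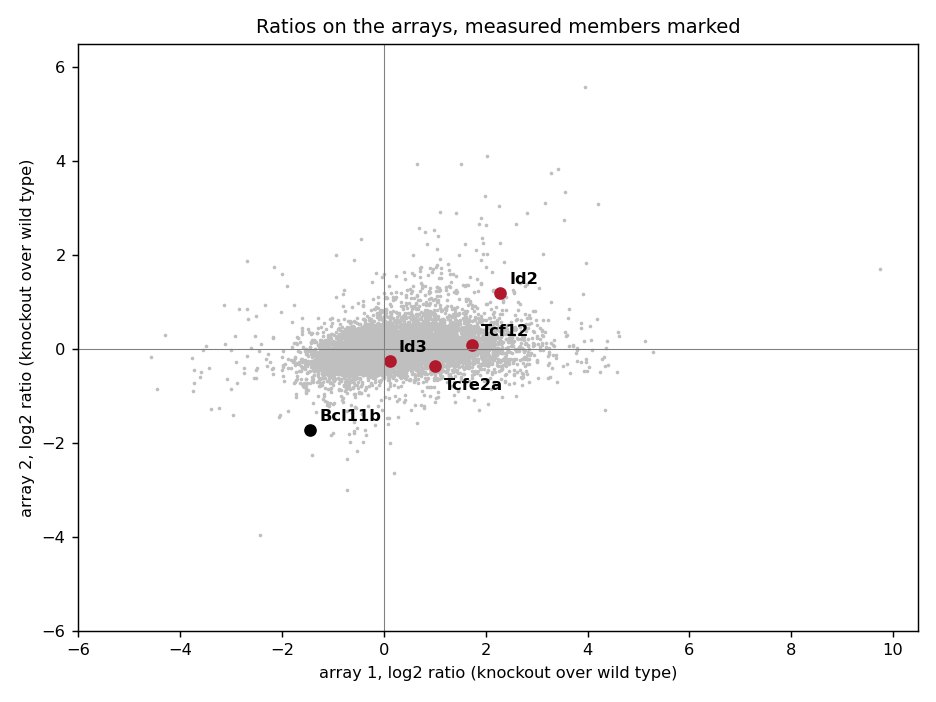
Log2 ratio of each of the 9281 measured genes (grey points) on array 1 (x axis) and array 2 (y axis), with the 4 measured members in red and Bcl11b in black. Id2 lies in the upper right at 2.29 and 1.20, while Tcf12 and Tcfe2a lie to the right near or below 0 on array 2.

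The 8 member probes that passed the filter, which come from 4 genes and so are not independent, had higher ratios on array 1 than on array 2, by 0.37 to 1.71 on the log2 scale. Of all 11844 probes that passed, 52.6% were higher on array 1. By gene, the 4 measured members were higher on array 1, as were 50.6% of measured genes. All 8 were above 0 on array 1, as were 53.9% of all such probes, and 4 were above 0 on array 2, as were 48.5%. Only 5 of the 13 probes were well above background in all 4 channels. The wider spread of array 1 over all genes (SD 1.01 against 0.41) moved with this, and its part in the member ratios was not tested.

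The genes nearest to Id2 in the pair of ratios over the 2 arrays were Cldnd1 (2.30 and 1.15), Ikzf2 (2.17 and 1.25) and Cobll1 (2.40 and 1.11). Their Euclidean distances to Id2 were 0.0535, 0.134 and 0.141 on the log2 scale. In wild type Ikzf2 and Cobll1 were dim (not well above background) on both arrays and Cldnd1 on array 1. Nearest to Id3 were Nemp2 (0.13 and -0.25), Polg2 (0.11 and -0.27) and Tmem230 (0.10 and -0.27). With 2 arrays such likeness is a description only.

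Genes that act with the Id and E proteins were examined as lists. Among the regulators that induce Id genes, 10 of 15 were measured and none passed; 5 were above 0 on both arrays, where 30.9% of all genes were, and 2 were below 0 on both, where 30.8% were. The list median was 0.65 against 0.04 for all genes, with 1.25 on array 1 and -0.06 on array 2. Egr1 and Egr2, zinc-finger factors of T cell receptor signalling that induce Id2 and Id3, were at 2.00 and 0.63 and at 1.69 and 0.71 (adjusted p = 0.215 and 0.309, limma). Egr3 was at -0.50 and -0.45. Of the BMP receptors that signal to Id1, Bmpr1a, Bmpr1b and Bmpr2 were not well above background in any channel. Acvr1, a type I receptor for BMPs, was well above background only in wild type, on both arrays, with ratios of -0.42 and -0.28. By a bound that takes no account of the spread between arrays, its knockout signal was at least 1.13-fold lower. Acvr1 did not pass (adjusted p = 0.924, limma). These 4 receptors were named after their values were seen.

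Class II helix-loop-helix genes, the tissue-restricted partners of E proteins, and Id4 were mostly at background. By their brightest probe, 21 of these 26 genes were not well above background in any channel, among them Id4, Tal1 and Ascl2. The 2 that were measured did not pass: Lyl1, a blood cell factor related to Tal1, at 0.32 and 0.22, and Ferd3l at -0.78 and -0.25. Of 7 E-box repressors 2 were measured. Bhlhe40, an activation-induced repressor, was at 0.93 and 1.09 without passing (adjusted p = 0.474, limma), and Zeb1, the other, at 0.75 and -0.26; Zeb1 was named after its values were seen.

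Of 14 cofactors of E protein complexes 10 were measured and none passed. On both arrays 6 were above 0, where 30.9% of all genes were, and 1 was below 0, where 30.8% were. The list median was 0.35. Gata3, the T lineage factor, was at 2.03 and 0.97 (adjusted p = 0.112, limma). Cbfa2t3, a corepressor of the ETO family, was at 1.26 and 1.17. Wild type was not well above background for it, so only a bound on its signal is given, at least 1.76-fold higher in the knockout. This bound takes no account of the spread between arrays, and Cbfa2t3 did not pass (adjusted p = 0.291, limma). Rb1, the retinoblastoma protein that Id2 binds, was at 1.50 and 0.60.

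Of 8 genes for the turnover of Id and E proteins 6 were measured, with a median of 0.31, and none passed. Cops5, a signalosome subunit, was at 2.34 and 0.38, and Cdc20, a subunit that activates the anaphase-promoting complex, at -0.40 and -0.13. The deubiquitinase gene Usp1 was at 1.77 and -0.29, and thus of opposite sign on the arrays. Usp1 was chosen after its values were seen.

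Known E protein targets in lymphocytes did not pass either (12 of 21 measured, median 0.32). They were above 0 on both arrays in 5 cases, where 30.9% of all genes were, and below 0 on both in 3, where 30.8% were. Cdk6, a cell cycle kinase, was at 0.54 and 0.42 and Foxo1, a factor of T cell quiescence, at 0.84 and 0.39. The thymocyte targets Ptcra, Rag1, Rag2 and Notch3 were not well above background in any channel.

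**Figure D4:**
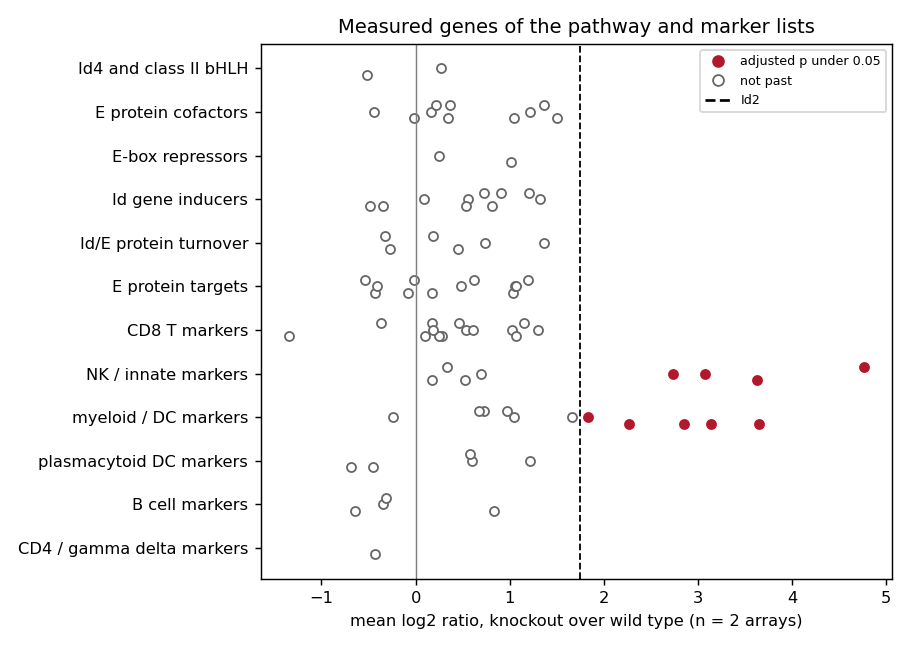
Mean log2 ratio over 2 arrays (x axis) of each measured gene of the pathway and marker lists (rows); filled points passed adjusted p 0.05 and the dashed line is Id2 at 1.75. No gene of the 6 pathway lists passed. Of the markers, 4 NK and 5 myeloid ones passed as higher, where 1.24% of all measured genes did. The filter in part set these marker counts.

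Some markers of other cells rich in Id2 were higher in the knockout as well. In this bulk RNA, a change in the number of cells of a type and a change in RNA per cell cannot be told apart. Of 11 NK and innate lymphoid markers 8 were measured. Of these 4 rose, where 1.24% of all measured genes did, none fell, and the list median was 1.71. By their brightest probe, 8 and 9 of the 10 on the array were well above background in the knockout on arrays 1 and 2. In wild type 4 were on each array. A marker measured through the knockout alone could hardly pass as lower, so the filter in part set these counts and the median. The markers that rose were Fcer1g (at least 20.9-fold), Cd244a (at least 6.73-fold), Klrb1c (2.02 and 4.12) and Tyrobp (1.52 and 3.94). Ncr1, the most NK-restricted of the list, was at -0.20 and 0.86 and did not pass. Neither did Eomes (0.63 and 0.74), Nkg7 (0.50 and 0.53) or Klra8 (0.02 and 0.33). All of these markers that did not pass were named after their values were seen. The normalised signals of the 10 markers on the array summed to 87233 and 178343 in the knockout and to 51431 and 65125 in wild type. Klrg1 was not well above background in any channel. The knockout sum was higher on array 2, as was the knockout level of Id2 (13.79 against 13.34). The wild-type sum and the wild-type level of Id2 (12.59 against 11.05) were higher on array 2 too. In ratios the order differed: the list median was 1.08 on array 1 and 2.35 on array 2, and Id2 was at 2.29 and 1.20. The part of NK-like cells in the Id2 result was not tested.

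Of 14 myeloid and dendritic markers 11 were measured. Of these 5 passed as higher, where 1.24% of all measured genes did, none passed as lower and the median was 1.66. By their brightest probe, 11 and 10 of the 14 were well above background in the knockout on arrays 1 and 2. In wild type 2 and 5 were. The filter thus in part set these counts and the median, as for the NK markers. Those that passed were Adgre1 (at least 3.86-fold), C1qc (at least 4.57-fold), Csf1r (at least 2.02-fold), Itgax (2.29 and 2.26) and Lyz2. Lyz2 was at 4.03 on array 1, where wild type was not well above background, and at -0.38 on array 2. Its pass thus rests on array 1 alone. The list summed to 31404 and 38147 in the knockout and to 10178 and 20656 in wild type. Itgam, Cd68 and Flt3 were not well above background in any channel. Their part in the Id2 result was not tested.

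Markers of cells rich in Tcf4 did not pass. Of 9 B cell markers 4 were measured and none passed (median -0.33): Cd22 was at -0.71 and -0.56, Cd79b at -0.51 and -0.14 and Ms4a1 at 1.28 and 0.38. Their signals summed to 13735 and 12889 in the knockout and to 18212 and 13375 in wild type. Cd79a, Blk and Ebf1 were not well above background in any channel. Of 7 plasmacytoid dendritic cell markers 5 were measured and none passed (median 0.58), with sums of 45824 and 32348 in the knockout and 57644 and 36428 in wild type. Pacsin1 was at -0.45 and -0.93, Ly6d at 0.96 and 0.21 and Bst2 at -0.80 and -0.10, while Siglech and Spib were not well above background. Cd4 was at -0.65 and -0.21 and was the only 1 measured of 5 CD4 and gamma delta markers on the array.

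Among the CD8 T cell markers none of 14 passed (median 0.37). The homing receptor gene Ccr7 was at -1.72 and -0.96, Cd8b1 at 1.11 and 0.93 and Cd247 at 0.46 on both arrays. The summed signals were 537738 and 469649 in the knockout and 341896 and 391324 in wild type. Genes of the naive state, Tcf7 (2.73 and -0.59) and Lef1 (3.22 and -0.62), had opposite signs on the arrays, as Tcfe2a had; both were chosen after their values were seen.

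**Figure D5:**
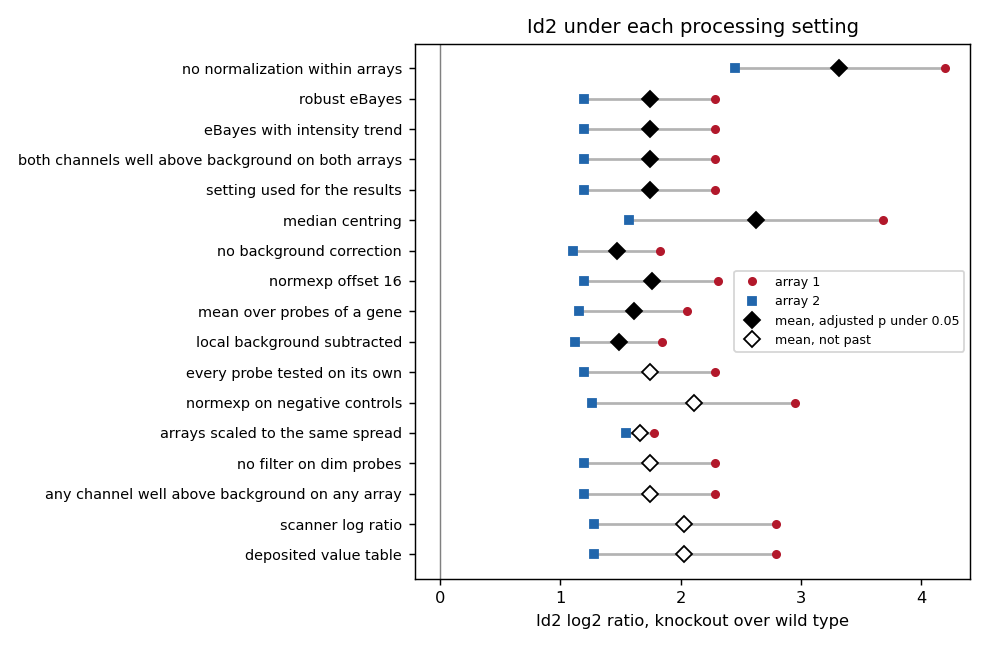
Log2 ratio of Id2 (x axis) on array 1 (circles), array 2 (squares) and as their mean (diamonds) under each processing setting (rows, by adjusted p); filled diamonds passed adjusted p 0.05. Both arrays stayed above 1 under every setting shown, and the mean passed in 9 of the 16 alternatives.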

How the data were processed

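The submitters' processing notes name Agilent Feature Extraction 9.5.3.1 for the scans of the 2 arrays. The deposited files give linear intensity per spot and channel, unnormalised, per the file headers. The scanner software also gave log10 ratios of Cy5 over Cy3, their errors and a p-value per spot, per the file headers; the deposited value table holds the same log10 ratios to within 0.005, with column medians of 0 and 0. Both arrays lay on 1 slide and were scanned together.

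Intensities were corrected with normexp (offset 50) and log2 ratios normalised by loess with limma 3.58.1 in R 4.3.3. Control and flagged spots had weight 0 and were then left out. The brightest probe that passed the filter stood for a gene. Of 41174 probes, 24375 were named by accession through RefSeq (GRCm38.p6), 6301 by current symbol, 2426 by older symbol and 8072 by the name in the files. The test was two-sided (lmFit, eBayes), and p-values were adjusted by Benjamini-Hochberg over 9281 genes. The prior degrees of freedom were infinite, so the standard error was 0.50 for every gene; means of at least 1.68 in size passed. The fit was tested on simulated data with equal noise on both arrays. The real arrays differed in spread, so this does not show how well the adjusted p-values hold here. Channel levels and the bounds used loess and Aquantile. A bound sets the brighter genotype's mean against, per array, the higher of the dim probe's own signal and the lowest signal well above background. The number of arrays limits the precision.

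Members, gene lists and tests were chosen with earlier results of these data known. Named genes are all members, Bcl11b, list genes that passed, up to 3 per list with the largest smaller ratio of the same sign, and the 3 nearest to Id2 and Id3. Genes named only as not well above background, and those marked so in the text, lie outside this rule and were chosen after their values were seen. Alternatives changed the background correction, normalisation, filter, probe choice and spread, and left out each array. Of the list genes this rule takes, 1 is not reported here.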

Additional observations from a re-analysis of the deposited data

How the results depend on the processing

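Id2 kept its direction under all 16 alternatives with a test and did not pass in 7: negative-control background (2.11, adjusted p = 0.182), the scanner's log ratio and the deposited value table (2.03 in each, 0.633 and 0.635), arrays scaled to the same spread (1.66, 0.375), no filter on dim probes (1.75, 0.457), the filter of any channel on any array (1.75, 0.502) and every probe on its own (1.75, 0.147; all limma). Leaving out 1 array gave 1.20 to 2.29 for Id2, -0.26 to 0.12 for Id3, -0.37 to 1.00 for Tcf3 (Tcfe2a) and 0.09 to 1.73 for Tcf12, with no test. Id3 turned positive with median centring (0.70) and without normalisation (1.40, adjusted p = 0.037), where the median of all genes was 0.68 and 1.38. Without normalisation Tcf3 (1.75) and Tcf12 (2.41) passed too, as did 5096 genes as higher and 1 as lower. In the other alternatives Tcf3 and Tcf12 did not pass. Id1 and Tcf4 were tested only with looser filters. Neither passed with no filter on dim probes (adjusted p = 0.457 for each, limma), nor did Tcf4 with any channel on any array (0.795). These tests used the brightest probe of each gene, at a mean of -0.30 for Tcf4. The Tcf4 probe with ratios of 3.81 and 0.93 was not tested in any setting.

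Of all genes, 115 passed as higher and 23 as lower. The counts were 26 and 6 without background correction, 25 and 6 with local background subtracted, 54 and 9 with negative-control background, 62 and 1 with median centring, 26 and 14 with both channels well above background, 7 and 0 with any channel (1024 at an unadjusted p under 0.05), 27 and 2 for single probes, 265 and 37 with an intensity trend and 185 with robust eBayes. None passed with the scanner ratio (575 at an unadjusted p under 0.05), the value table (571), scaled arrays (910) or no filter (2478; all limma). The causes were not tested. The analysis was paired within arrays, because each array holds both genotypes as 1 ratio. No further pairing was possible, since the samples form 1 group. The wild-type signal of array 1 was near the negative controls for Id2, Tcfe2a and Tcf12, which limits the size of their ratios there.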
